A study of Mus musculus with 4 samples.

Results

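The serpins are a family of protease inhibitors and related proteins, and their expression was followed across the cells of the mouse epididymis and vas deferens. All genes of the count table whose symbol starts with Serpin were taken, which gave 38 of 16892 genes. Of these, 21 had at least 20 UMIs (unique molecular identifiers, each standing for 1 captured RNA molecule) in at least 1 of 7 cell types, and 20 of these are described by name. The other 17 are listed once with their totals. The single-cell RNA-Seq data comprised 4 libraries, 1 each from the caput, corpus and cauda epididymis and the vas deferens. They were made from untreated adult male FVB/NJ mice of 10 to 12 weeks, with 8 epididymides of 4 mice pooled and cut into segments, so the libraries came from the same pool of animals. The tissue had been washed to deplete sperm before dissociation.

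Most serpins are suicide inhibitors: a protease cleaves an exposed loop of the serpin, and the serpin then folds around the protease and traps it. Members of clade A, E, F and G are mostly secreted and act on proteases of inflammation, clotting, plasmin formation and complement, while clade B members mostly stay inside the cell, where they guard against the cell's own or incoming proteases. A few, such as Serpinh1 and Serpinf1, inhibit no protease. In the male tract, extracellular inhibitors are known as components of epididymal fluid and of the coat of maturing sperm.

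The libraries held 1433 to 3506 cells and 4408989 to 10744928 UMIs each, with a median of 1858 UMIs over the 8880 cells. In the lists of markers for the 7 cell types, all markers were highest in their own type, except 1 of 4 for basal and 1 of 5 for immune cells. As a sum, however, the immune list had 20600 UMIs per 1000000 UMIs in principal cells and 8530 in immune cells. All but 1 of these 5 markers were highest in immune cells, so the excess in principal cells came from that 1 marker. In cauda principal cells the sum was 46600, with Ptprc and Cd3e at 0. Sperm markers totalled 7 UMIs and liver markers 26. Levels are UMIs of a gene per 1000000 UMIs of a group of cells (UPM), given with exact Poisson intervals, and ratios carry exact conditional binomial intervals, all at 95%. Each region is 1 library, so there are no replicates, nothing could be tested, intervals cover counting error only and region cannot be told apart from library. The cell populations had been made from these same counts, so a difference between populations is a description and not independent evidence. A lower level per 1000000 UMIs can also reflect more RNA from other genes in the same cells.

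Serpin UMIs made up 0.226% of all UMIs, and 1 gene, Serpina1f, gave 35.4% of them. A gene was called restricted to a type when it had at least 20 UMIs there and a level at least 4-fold above that of each other type. By this rule 7 of the 18 Serpin genes with enough UMIs in their highest type were restricted, against 11.8% of all 11352 genes. They were Serpina1f and Serpinf2 in principal cells, Serpinb6b and Serpinb9 in clear cells, Serpinb5 in basal cells, and Serpinf1 and Serping1 in stromal cells. Serpinf2 lost its call when the caput, corpus or vas deferens library was left out, and the other 6 kept theirs without any 1 library. The rule counts each other type as at least 3 UMIs, which is 5.15 UPM in immune cells, against 21.7 UPM of Serpinf2 in principal cells. Leaving out a library also moves this limit. With the authors' size factors in place of UMI totals, Serpinb6b, Serpinb9 and Serpinf2 lost their calls. The median ratio of the highest to the next type was 3.33 for the Serpin genes and 1.39 for all genes. By highest type, 6 Serpin genes fell to basal cells (9.4% of all genes), 5 to stromal cells (13.2%), 3 to principal cells (18.6%), 2 to clear cells (26%), 1 to muscle (15.8%), 1 to immune cells (6.44%) and 0 to endothelial cells (10.5%).

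**Figure D1:**
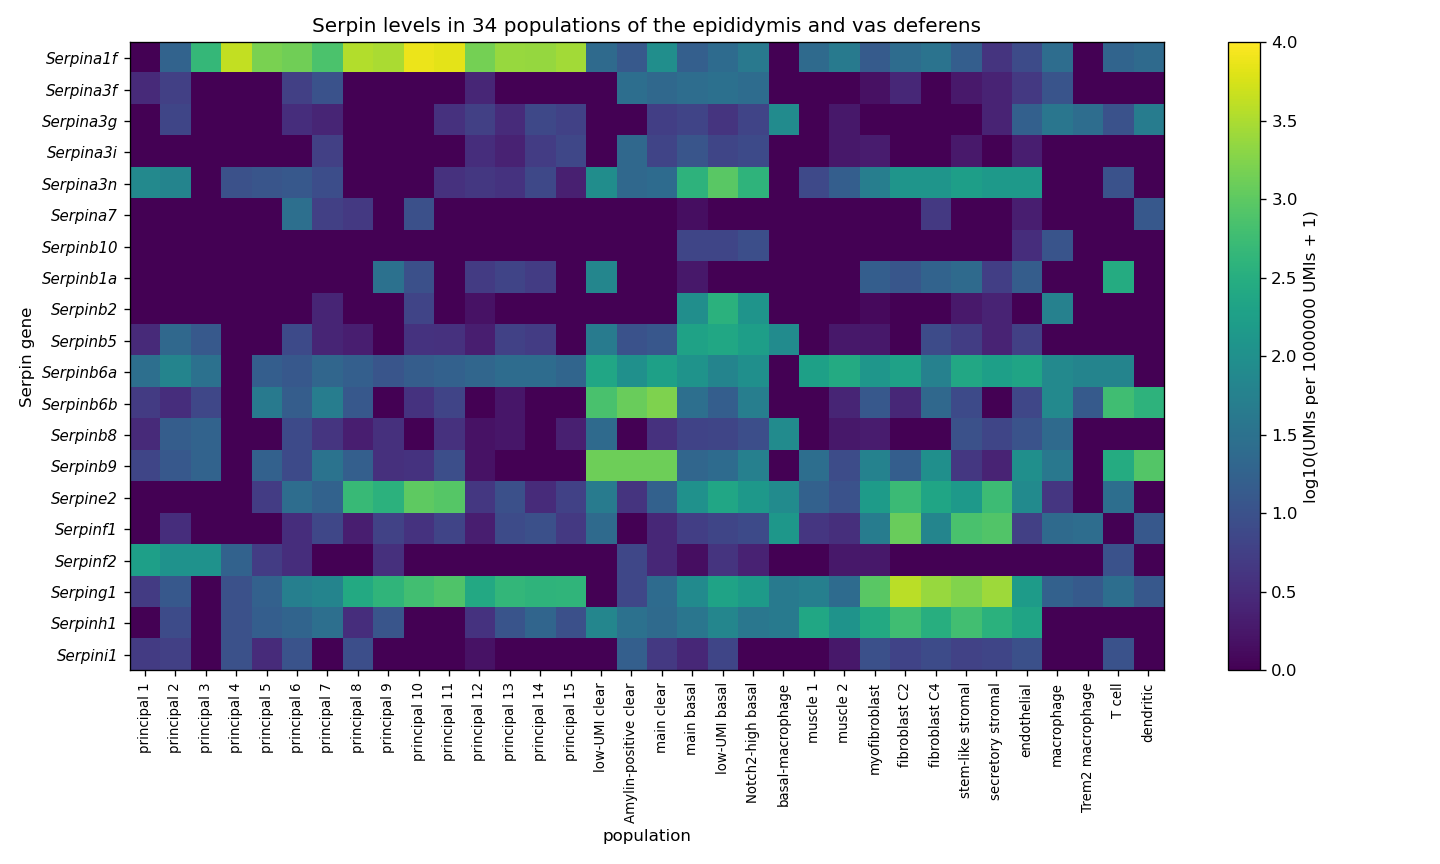
Levels of 20 named Serpin genes (vertical axis) in the 34 populations (horizontal axis), as log10 of UMIs per 1000000 UMIs plus 1 (color). Serpina1f is bright across the principal populations except the first 2, Serpinb6b and Serpinb9 across the 3 clear populations, and Serping1 across the stromal ones.

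Most family members lay in 3 runs on the mouse genome (GRCm38, GENCODE M21 coordinates). The clade A run, chr12:103688044-104414329, held 13 members, of which 5 were named, with Serpina1f at one end (chr12:103688044-103695529) and Serpina3n at the other (chr12:104406729-104414329). The clade B run on chromosome 1, chr1:106861173-107610484, held 5 members with 4 named, and 3 of these 4 were highest in basal cells (9.4% of all genes). For 1 of the 3, Serpinb10, the counts did not resolve the highest type, with a ratio to immune cells of 1.19 (0.378 to 6.04). The clade B run on chromosome 13, chr13:32842092-34002794, held 9 members with 4 named. Its neighbors Serpinb6b (chr13:32965209-32979067) and Serpinb9 (chr13:33003250-33017957) were both highest in clear cells, while Serpinb6a (chr13:33917918-34002794) was highest in muscle and Serpinb1a (chr13:32842092-32851185) in immune cells. Several members of a run are close copies of each other, and reads that matched several places were ignored in the counting, so levels of the Serpina1, Serpina3, Serpinb1, Serpinb6 and Serpinb9 genes may be too low. Serpinb2 and Serpinb10 overlap on the same strand, so their counts are uncertain too.

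Upstream sequences are shown for the pair of clear cell genes and for the pair of principal cell genes, because these are the 4 genes called restricted to those types. Each is from RefSeq (GRCm38.p6), 5′ to 3′ on the strand of the gene, from up to 250 bases before the start, with bases that GENCODE puts in an exon of the gene left out. The RefSeq start of Serpinb9 lies downstream of the GENCODE start, so its window lies inside the GENCODE gene but outside its exons, and the starts also differ for Serpinb6b and Serpinf2, where 52 and 90 exon bases were left out. Capitals mark TGTTTA, the core recognized by forkhead factors, on either strand.
Serpinb6b, chr13:32965011-32965208, + strand: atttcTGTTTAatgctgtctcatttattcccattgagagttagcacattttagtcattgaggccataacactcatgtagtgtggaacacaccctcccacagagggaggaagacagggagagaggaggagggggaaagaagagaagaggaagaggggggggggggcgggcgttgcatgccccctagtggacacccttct
Serpinb9, chr13:33004291-33004540, + strand: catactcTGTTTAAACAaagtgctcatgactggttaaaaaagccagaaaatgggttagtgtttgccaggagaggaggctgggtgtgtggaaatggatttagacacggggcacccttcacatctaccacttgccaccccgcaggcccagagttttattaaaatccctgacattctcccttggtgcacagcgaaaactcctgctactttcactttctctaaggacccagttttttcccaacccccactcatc
Serpina1f, chr12:103695530-103695779, - strand: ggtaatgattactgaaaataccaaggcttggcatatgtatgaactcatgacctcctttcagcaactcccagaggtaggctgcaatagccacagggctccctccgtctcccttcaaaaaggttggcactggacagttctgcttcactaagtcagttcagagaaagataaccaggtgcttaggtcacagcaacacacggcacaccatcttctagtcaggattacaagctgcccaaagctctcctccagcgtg
Serpinf2, chr11:75439592-75439751, - strand: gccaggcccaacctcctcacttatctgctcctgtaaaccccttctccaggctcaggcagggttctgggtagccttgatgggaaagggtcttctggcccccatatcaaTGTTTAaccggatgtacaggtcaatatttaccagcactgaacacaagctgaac
TGTTTA occurred in both clear cell windows, at 245 to 240 bases before the start of Serpinb6b and at 243 to 238 bases before that of Serpinb9, where a match on the opposite strand at 239 to 234 bases overlapped it. It also occurred once before Serpinf2, at 143 to 138 bases, and not before Serpina1f. Over all 32851 RefSeq windows of the same length, 12.0% held it, and among 39 windows of the 33 Serpin genes with an entry, 9 did. The letters AGAACA (an androgen receptor half-site) and TATAAA, found in 16.1% and 12.4% of all windows, occurred in none of the 4. The motifs were chosen after the sequences had been viewed, and a match is a description of letters, not a site in use.

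Principal cells, the secretory cells of the epithelium, carried Serpina1f, a clade A member related to alpha-1-antitrypsin, at 2189 UPM over all libraries. The next type was clear cells at 73.9 UPM, a ratio of 29.6 (24.5 to 36.1). By library the principal cell level was 278 UPM in caput (254 to 304), 1224 in corpus (1167 to 1283), 4849 in cauda (4746 to 4953) and 2197 in vas deferens (2155 to 2240). All 4 intervals were apart, and the cauda level was 17.4-fold that of the caput (15.9 to 19.2) and 2.21-fold that of the vas deferens (2.14 to 2.27). After drawing 1000 UMIs from each cell, 66.1% of 1894 principal cells had a Serpina1f UMI (Clopper-Pearson 63.9 to 68.2%), compared with 1.06% of stromal and 1.30% of basal cells. Without the draw the share was 51.3% of 3956 principal cells, whose median depth of 934.5 UMIs was the lowest of the 7 types.

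The levels of the populations did not run in 1 direction along the duct. Principal 1 and principal 2, made up of 144 and 353 caput cells, had 0 Serpina1f UMIs (up to 7.23 UPM) and 17.8 UPM, while principal 3, also entirely caput, had 463 UPM. Principal 4, with 19 caput and 55 corpus cells, stood at 4234 UPM. The level was lower in principal 5 (1550), principal 6 (1362) and principal 7 (741), which were mostly corpus. It was highest in principal 10 at 7656 UPM (7370 to 7950) and principal 11 at 6866 (6598 to 7141), both mostly cauda, and between 1432 and 2779 in principal 12 to principal 15 of the vas deferens. Populations shared by 2 libraries gave values within 1 population: principal 5 had 1545 UPM in its caput cells and 1553 in its corpus cells, and principal 11 had 7591 in cauda and 5188 in vas deferens cells.

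**Figure D2:**
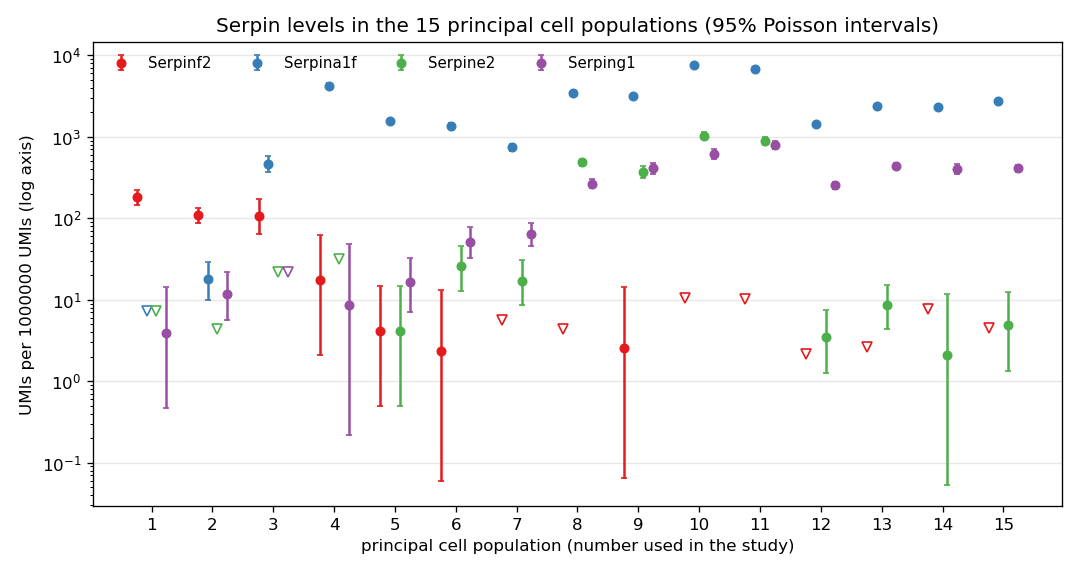
Levels of 4 Serpin genes (UMIs per 1000000 UMIs, log axis) in the 15 principal cell populations (horizontal axis), with exact Poisson 95% intervals as bars and open triangles at the upper limit where no UMI was found. Serpinf2 is highest in principal 1 to principal 3, Serpine2 in principal 8 to principal 11, and Serpina1f in principal 10 and principal 11.

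Among genes of principal cells with at least 20 UMIs in their highest library, 5 of 11 Serpin genes were restricted to 1 library by the same 4-fold rule, against 6.61% of 9122 genes. These were Serpinf2, Serpina3n and Serpinb5 in caput, Serpinb6b in corpus and Serpine2 in cauda. The median ratio of the highest to the next library was 3.3 for the Serpin genes and 1.35 for all genes. With called doublets left out, 3 of the 5 remained and Serpinb5 and Serpinb6b did not, and when each cell counted equally only Serpine2 and Serpinf2 remained. With the authors' size factors, Serpina3n and Serpinb6b lost their calls.

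Serpinf2, which encodes alpha-2-antiplasmin, the main inhibitor of plasmin, was found mainly in caput. Principal cells had 205 UMIs or 119 UPM in caput (103 to 136), 2 UMIs or 1.41 UPM in corpus, 1 UMI or 0.575 UPM in cauda, and 0 UMIs in vas deferens (up to 0.788 UPM). The caput level was 84.4-fold that of the corpus (23.1 to 701), with the width of the interval set by the 2 corpus UMIs. Within the caput it was 180 UPM in principal 1 (145 to 221), 109 in principal 2 and 108 in principal 3, so the population without Serpina1f had the most Serpinf2. The gene is sparse per cell, with a UMI in 2.53% of principal cells after the draw (1.87 to 3.35%). Over all libraries its ratio to the next type, clear cells, was 7.95 (3.06 to 29.4), on 4 clear cell UMIs, all from the caput library.

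Serpina3n, an inhibitor related to alpha-1-antichymotrypsin, was the other extracellular caput gene, at 54.0 UPM in caput principal cells (43.6 to 66.1), 10.6 in corpus, 0.575 in cauda and 2.99 in vas deferens. Its caput level was 5.10-fold that of the corpus (2.94 to 9.48). It was present in principal 1 (76.5 UPM) and principal 2 (62.8) and had no UMI in principal 3, unlike Serpinf2. Basal cells of the caput had 454 UPM of the same gene, and the 4 basal markers summed to 77.7 UPM in caput principal cells against 82.5 in corpus, 51.2 in cauda and 29.9 in vas deferens. Their part in the principal cell level was not tested.

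Serpine2 encodes protease nexin-1, an inhibitor of thrombin, urokinase and other trypsin-like proteases. In principal cells it had 1 UMI or 0.580 UPM in caput (0.015 to 3.23), 11.3 UPM in corpus, 670 in cauda (632 to 710) and 23.3 in vas deferens (19.1 to 28.1). The cauda stood alone, 28.8-fold above the vas deferens (23.6 to 35.4). The 4 populations that were mostly cauda had 489 UPM (principal 8), 369 (principal 9), 1031 (principal 10) and 895 (principal 11), and principal 12 to principal 15 had at most 8.59. Principal 11 had 1128 UPM in its cauda cells and 348 in its vas deferens cells. In the cauda, 183 of 433 principal cells with 1000 drawn UMIs had both Serpina1f and Serpine2, 216 only Serpina1f, 12 only Serpine2 and 22 neither.

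Serping1, the C1 inhibitor that blocks the first proteases of complement and the contact system, was low in caput and corpus principal cells and higher in both cauda and vas deferens. Its principal cell levels were 7.54 UPM in caput (4.02 to 12.9), 47.2 in corpus (36.6 to 60.0), 414 in cauda (385 to 446) and 375 in vas deferens (358 to 393). The cauda level was 54.9-fold that of the caput (31.9 to 104) and 1.10-fold that of the vas deferens (1.01 to 1.21). It was highest in principal 11 at 793 UPM and between 254 and 440 in principal 12 to principal 15. Stromal markers, whose cells had the most Serping1, summed to 26.1 UPM in principal cells of the caput, 56.4 in corpus, 85.6 in cauda and 86.9 in vas deferens, against 9330 in stromal cells. The part of stromal RNA in the principal cell level was not tested.

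**Figure D3:**
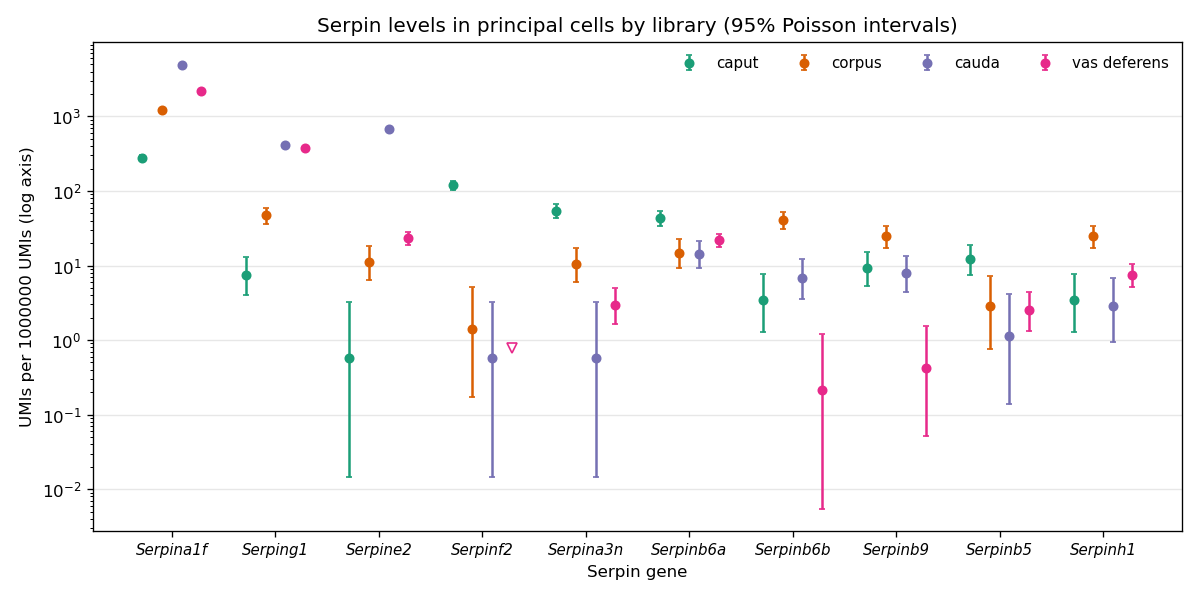
Levels of 10 Serpin genes in principal cells (UMIs per 1000000 UMIs, log axis) in the 4 libraries (colors), with exact Poisson 95% intervals as bars and an open triangle at the upper limit where no UMI was found. Serpinf2 and Serpina3n are highest in caput, Serpinb6b and Serpinb9 in corpus, and Serpina1f and Serpine2 in cauda.

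The remaining principal cell genes were low. Serpinb6b had 3.48, 40.2, 6.90 and 0.214 UPM in caput, corpus, cauda and vas deferens, and Serpinb9 had 9.28, 24.7, 8.05 and 0.427. Without called doublets the corpus levels were 15.7 and 12.7 UPM, and the 14 called doublets held 36 of the 57 Serpinb6b UMIs there. Clear cell markers summed to 661, 469, 344 and 789 UPM in the same 4 groups of principal cells, and their part in the levels of both genes was not tested. Serpinb5 had 21 UMIs or 12.2 UPM in caput principal cells and 2.82, 1.15 and 2.56 UPM in the others. Serpina7, thyroxine-binding globulin, had 14 UMIs in corpus and 7 in cauda principal cells and 0 in the other 2 libraries, and its overall level of 2.20 UPM was not separable from the 1.72 UPM of immune cells, which rested on 1 UMI.

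Clear cells acidify the lumen with proton pumps, and 87.4% of their Serpin UMIs were those of 2 intracellular genes, Serpinb6b and Serpinb9. Serpinb9, the mouse relative of the human granzyme B inhibitor, had 1288 UPM in clear cells and 203 in immune cells, a ratio of 6.35 (5.27 to 7.72). Serpinb6b, one of several mouse copies of SERPINB6, had 1563 UPM in clear and 211 in immune cells, a ratio of 7.39 (6.17 to 8.94). Immune cells were the next type for both, and principal cells had 7.01 and 7.95 UPM.

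By library both genes were highest in cauda and lowest in vas deferens clear cells, and they differed in the order of caput and corpus. Serpinb6b stood at 970 UPM in caput (855 to 1096), 1328 in corpus (1225 to 1437), 2238 in cauda (2118 to 2363) and 734 in vas deferens (603 to 885). Serpinb9 stood at 1357 UPM in caput (1221 to 1505), 1058 in corpus (967 to 1156), 1546 in cauda (1446 to 1650) and 881 in vas deferens (737 to 1045). The cauda to caput ratio was 2.31 for Serpinb6b (2.02 to 2.65) and 1.14 for Serpinb9 (1.01 to 1.29). The vas deferens had 38 clear cells, the fewest of the 4. Clear cell markers summed to 6070, 5810, 6150 and 4690 UPM in clear cells of the caput, corpus, cauda and vas deferens. Principal cell markers summed to 1170, 1800, 1490 and 10100 UPM in the same cells. The part of RNA from other cells in the lower vas deferens levels was not tested. Without called doublets it had 33, with 517 UPM of Serpinb6b and 767 of Serpinb9. Summed over libraries, Serpinb9 had 1287 UPM in both the main and the Amylin-positive clear cells and 1306 in the low-UMI clear cells. Serpinb6b had 1695, 1238 and 710 UPM there. The Amylin-positive clear cells came from the caput and corpus only, so these populations differ in library make-up. Within the main clear cells, Serpinb9 had 970 UPM in corpus (854 to 1097) and 1538 in cauda (1438 to 1644). Serpinb6b had 1262 and 2264 UPM in the same cells.

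After drawing 1000 UMIs from each of 238 clear cells, 68.5% had Serpinb6b (62.2 to 74.3%) and 63.0% had Serpinb9 (56.6 to 69.2%), against 0.845% and 0.792% of principal cells. Both genes were found in 109 of these cells, Serpinb6b alone in 54, Serpinb9 alone in 41 and neither in 34. Outside clear cells the 2 genes were found together in some immune populations. T cells had 598 UPM of Serpinb6b (463 to 761) and 290 of Serpinb9, and the 21 dendritic cells had 381 and 855 (672 to 1074), while the 104 macrophages had 75.0 and 39.1.

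Within clear cells, 1 of 4 Serpin genes with enough UMIs was restricted to 1 library (1.49% of 3949 genes), and this was Serpina1f in vas deferens. Its clear cell levels were 7.52 UPM in caput, 42.8 in corpus, 57.0 in cauda and 354 in vas deferens (265 to 463), the last on 53 UMIs of 38 cells. The 6 principal cell markers summed to 1170, 1800, 1490 and 10100 UPM in the same 4 groups, and basal markers to 48.9, 32.1, 93.3 and 367. Gpx5 and Adam28 were at 0 in the corpus, cauda and vas deferens groups, and Adam28 was also at 0 in vas deferens principal cells. Without called doublets the vas deferens level was 414 UPM in 33 cells. The part of principal cell RNA in it was not tested further.

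Basal cells, the small cells at the base of the epithelium, were the highest type for 6 named members, and Serpina3n gave 31.9% of their Serpin UMIs. Serpinb5 (maspin, a clade B member known from epithelia) was the one restricted to them, at 196 UPM against 11.6 in clear cells, a ratio of 16.9 (10.5 to 29.1). Its level hardly varied with region, at 186 UPM in caput (164 to 210), 207 in corpus (189 to 225), 192 in cauda (166 to 222) and 191 in vas deferens (168 to 216). The 4 intervals overlapped, and the ratio of the highest to the next was 1.07 (0.905 to 1.28). It had a UMI in 18.4% of 1155 basal cells after the draw (16.2 to 20.8%) and in 0.422% of principal cells.

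Serpina3n in basal cells was 454 UPM in caput (419 to 490), 467 in corpus (441 to 495), 216 in cauda (188 to 248) and 402 in vas deferens (369 to 437). The cauda was lowest, at 0.477 of the caput level (0.406 to 0.559), and the cauda was also lowest within the main basal population, with 428, 408, 210 and 395 UPM. Endothelial cells came next over all libraries at 140 UPM, a ratio of 2.94 (2.44 to 3.56). Low-UMI basal cells, with a median of 900 UMIs, had 947 UPM (846 to 1056), compared with 380 in the main basal cells and 394 in the Notch2-high basal cells.

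Serpinb2 (plasminogen activator inhibitor 2) was lowest in basal cells of the vas deferens. It had 80.1 UPM in caput (66.0 to 96.3), 151 in corpus (136 to 167), 174 in cauda (148 to 202) and 24.4 in vas deferens (16.8 to 34.3). The vas deferens level was 0.141 of the cauda level (0.094 to 0.205). Within the main basal population the gene had 25.7 UPM in vas deferens and 162 in cauda. Low-UMI basal cells had 360 UPM (299 to 430) and contributed 94, 147, 31 and 43 cells to the 4 libraries. This level rested on the corpus, with 92.7 UPM in caput and 661 in corpus cells, and without the corpus library it was 126 UPM (80.6 to 187). Over all libraries, basal cells had 110.5 UPM and immune cells, the next type, 29.2, a ratio of 3.78 (2.35 to 6.53). Few cells carried the gene, with a UMI in 3.72% of 1155 basal cells after the draw (2.71 to 4.98%). Without the draw, the 683 basal UMIs lay in 83 of 1412 cells and the 17 immune UMIs in 2 cells. The intervals for Serpinb2 do not cover this clustering and are too narrow.

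**Figure D4:**
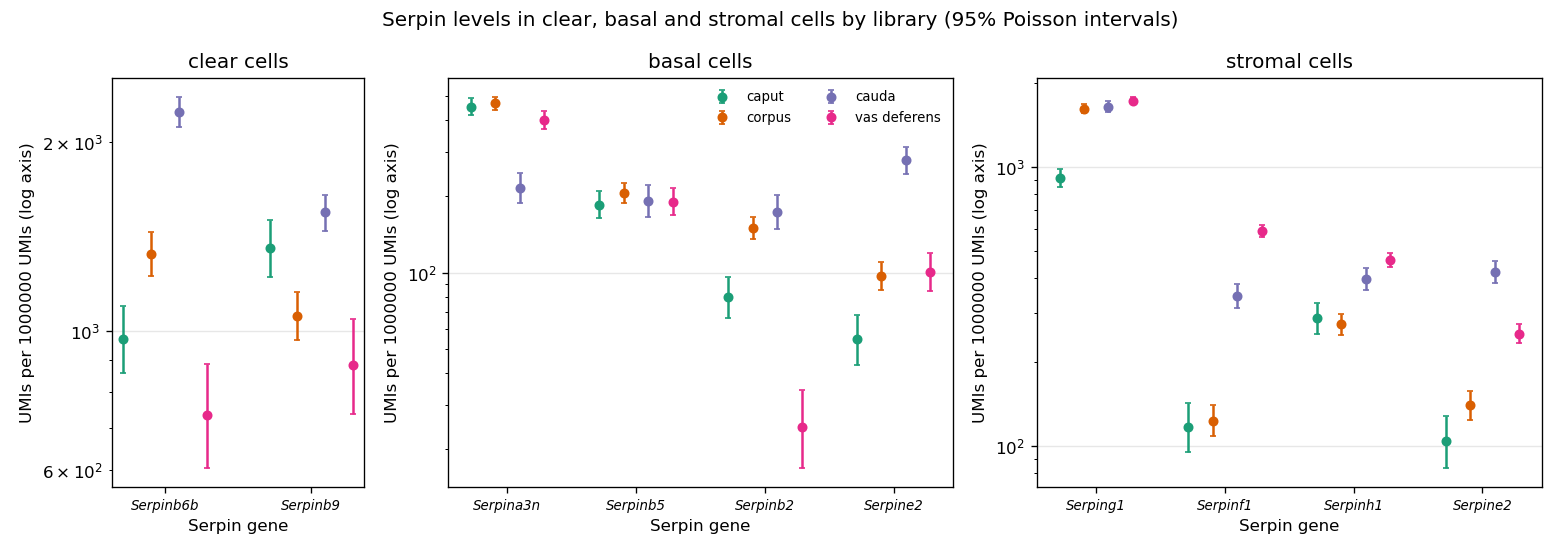
Levels of Serpin genes in clear, basal and stromal cells (UMIs per 1000000 UMIs, log axes with different ranges) in the 4 libraries (colors), with exact Poisson 95% intervals as bars. In clear cells Serpinb6b is highest in cauda, in basal cells Serpinb2 is lowest in vas deferens while Serpinb5 is level, and in stromal cells Serpinf1 is highest in vas deferens.

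None of 15 Serpin genes was restricted to 1 library in basal cells (2% of 7258 genes) and none of 11 in stromal cells (2.13% of 7919 genes). Serpine2 and Serping1, highest in cauda among principal cells, were also highest in cauda among basal cells. In basal cells Serpine2 had 54.6, 97.0, 278 and 101 UPM and Serping1 53.2, 79.1, 194 and 97.7 UPM in caput, corpus, cauda and vas deferens. The cauda level was 2.76-fold that of the vas deferens for Serpine2 (2.24 to 3.42) and 1.99-fold for Serping1 (1.58 to 2.51). Principal markers summed to 1210, 1410, 878 and 1340 UPM in these basal cells. Serpina1f, the main Serpin gene of principal cells, had 1.42, 11.8, 45 and 31.1 UPM there, highest in cauda. Without called doublets its levels were 1.44, 0.868, 20.3 and 26.6 UPM. The part of principal cell RNA in the basal levels was not tested. In the main basal population alone, Serpine2 had 42.7, 90.6, 268 and 88.5 UPM.

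Serpina3f, Serpina3i and Serpinb10 were also highest in basal cells, at 25.9, 9.54 and 6.15 UPM, but their ratios to the next type were 1.18 (0.805 to 1.79), 1.07 (0.582 to 2.13) and 1.19 (0.378 to 6.04). The type of the highest level is therefore not resolved by the counts for these genes. Among epithelial cells, Serpina3f was found mainly in basal and clear cells (21.9 UPM in clear cells), and had 1.67 UPM in principal cells. Serpinb10 had no UMI in principal, clear, muscle or stromal cells.

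Stromal cells carried secreted regulators of complement, vessels and matrix. Serping1 had 1577 UPM there, 52.4% of the stromal Serpin UMIs, and principal cells came next at 267 UPM, a ratio of 5.90 (5.65 to 6.16). Among 1695 stromal cells with 1000 drawn UMIs, 61.9% had a Serping1 UMI (59.5 to 64.2%), against 3.36% of clear cells. By library it had 914 UPM in caput (850 to 981), 1621 in corpus (1566 to 1679), 1646 in cauda (1574 to 1721) and 1732 in vas deferens (1681 to 1784). The caput was lowest, and the ratio of vas deferens to cauda was 1.05 (0.997 to 1.11). Within myofibroblasts the levels were 854, 1247, 716 and 593 UPM in caput, corpus, cauda and vas deferens, so vas deferens was lowest in this population although highest in the class. By population the range was wider, from 957 UPM in myofibroblasts (926 to 988) to 3855 in fibroblast C2 (3693 to 4022), with 2434 in fibroblast C4, 1727 in stem-like and 2630 in secretory stromal cells. The fibroblast C4 level rested on the corpus library, with 3664 UPM in corpus cells and 837 in caput cells, and without that library it was 950 UPM.

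Serpinf1 (pigment epithelium-derived factor, which inhibits vessel growth and no protease) had 344 UPM in stromal and 17.2 in immune cells, a ratio of 20.02 (10.9 to 41.8). In stromal cells it had 117 UPM in caput (95.1 to 143), 123 in corpus (108 to 140), 345 in cauda (312 to 380) and 592 in vas deferens (562 to 623). The populations differed more than the libraries, from 47.2 UPM in myofibroblasts (40.6 to 54.6) and 64.0 in fibroblast C4 to 703 in stem-like stromal, 813 in secretory stromal and 1232 in fibroblast C2 cells (1142 to 1329). Stem-like and secretory stromal cells came mostly from the vas deferens, with 517 of 549 and 213 of 226 cells, and myofibroblasts were spread over the libraries. Within myofibroblasts the levels were 31.6, 6.53, 127 and 75.6 UPM in caput, corpus, cauda and vas deferens, so the vas deferens was highest in the stromal class but not within this population.

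Serpinh1 (Hsp47, the chaperone of procollagen in the endoplasmic reticulum) had 372 UPM in stromal, 213 in endothelial and 137 in muscle cells, and 8.47 in principal cells. The ratio of stromal to endothelial cells was 1.74 (1.497 to 2.04). Fibroblast C2 and stem-like stromal cells had 603 and 623 UPM, which their counts did not separate (ratio 1.03, 0.907 to 1.18), and myofibroblasts had 271. Stromal Serpine2 was 104 UPM in caput (83.3 to 128), 140 in corpus (124 to 158), 421 in cauda (385 to 460) and 253 in vas deferens (233 to 273), so the cauda was highest in principal, basal and stromal cells, but not in clear cells, where vas deferens had 73.4 UPM on 11 UMIs, nor in endothelial cells, where caput had 169 on 24. In stromal cells it was 250 UPM in cauda myofibroblasts and 107, 137 and 136 in those of the other 3 libraries. Among stromal cells of all libraries, 315 of 1695 had both Serping1 and Serpinf1, 734 only Serping1, 68 only Serpinf1 and 578 neither.

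**Figure D5:**
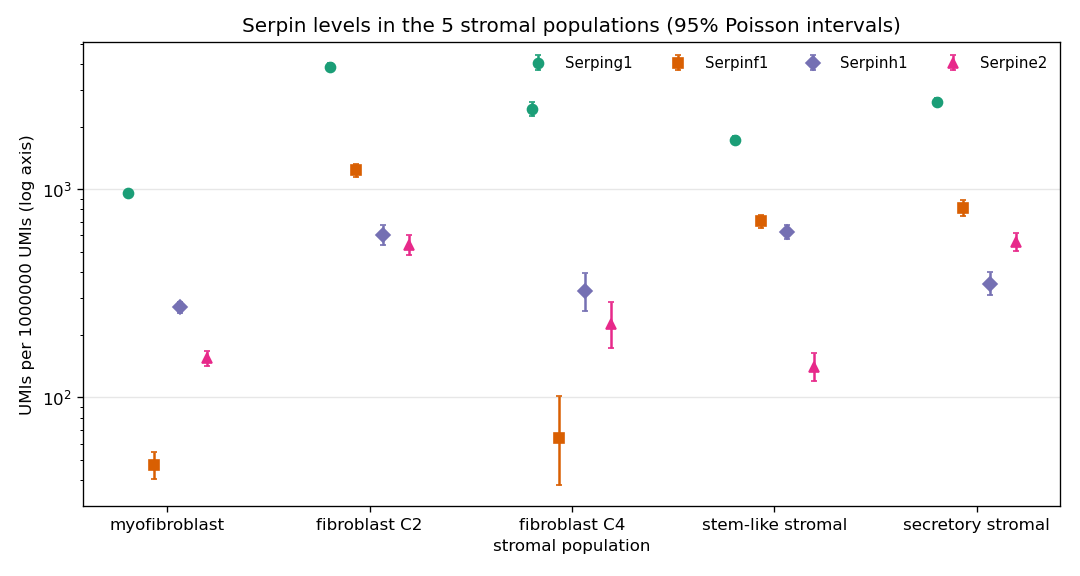
Levels of 4 Serpin genes (UMIs per 1000000 UMIs, log axis) in the 5 stromal populations (horizontal axis), with exact Poisson 95% intervals as bars. Serpinf1 ranges from 47.2 in myofibroblasts to 1232 in fibroblast C2, a wider range than that of Serpinh1.

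The last named members were low or broad. Serpinb6a, a broadly acting intracellular inhibitor, was found in all 7 types, from 23.3 UPM in principal cells to 256 in muscle and 215 in endothelial cells, whose ratio was 1.19 (0.995 to 1.43). Serpinb1a, a mouse form of the neutrophil elastase inhibitor, had 55.0 UPM in immune cells and 14.8 in stromal cells, a ratio of 3.72 (2.41 to 5.60), and all 32 immune UMIs came from T cells, at 290 UPM (198 to 409). Those 32 UMIs lay in 9 of 195 immune cells, so the intervals for Serpinb1a do not cover this clustering and are too narrow. The cauda library held 6 of the 44 T cells, and without that library no Serpin gene was counted as highest in immune cells. Serpina3g (immune, 30.9 UPM), Serpinb8 (immune, 12.0) and Serpini1 (neuroserpin, endothelial, 8.38) had fewer than 20 UMIs in their highest type.

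The other 17 members had between 1 and 26 UMIs in all 26639701. Serpina1b had 13, Serpina1c 6, Serpina1d 1, Serpina3b 1, Serpina3c 23, Serpina3m 14, Serpina9 12, Serpinb12 16, Serpinb1b 26, Serpinb1c 1, Serpinb6c 14, Serpinb6e 1, Serpinb9b 1, Serpine3 4 and Serpind1 (heparin cofactor II) 4. Serpinc1 (antithrombin) had 24. Serpina5, the protein C inhibitor known from the male tract, had 1 UMI. No cell type of these genes was assigned, as none reached the minimum of 20 UMIs in a type.

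The proteases and partners of these inhibitors were counted from fixed lists. Of 14 genes of plasminogen activation and clotting, 12 had at least 20 UMIs in a type, and 5 of these were highest in stromal, 3 in basal, 2 in endothelial, 1 in clear and 1 in immune cells. Plat, the tissue plasminogen activator inhibited by Serpine2 and Serpini1, was highest in stromal cells at 577 UPM, the highest type of Serpine2, although without the vas deferens library principal cells had more Serpine2 than stromal cells. Plaur, the urokinase receptor, had 942 UPM in basal cells. F3, the tissue factor that starts clotting, had 3717 UPM in basal cells. Plasminogen itself, the source of the plasmin that Serpinf2 inhibits, had 4 UMIs in all.

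Of 13 genes of the classical complement pathway, 12 were measurable and 7 were highest in stromal cells, the type with the most Serping1. They included C1ra at 91.7 UPM and C1s1 at 157, the proteases that Serping1 inhibits, while C1qa, C1qb and C1qc were highest in immune cells. Of 16 collagen partners of Serpinh1, 15 were in the table and all 15 were measurable, with 12 highest in stromal cells, as was Serpinh1, and Col1a1 at 913 UPM. Of 10 proteases met by clade B serpins, 7 were measurable and 5 were highest in immune cells. Gzmb, the granzyme inhibited by Serpinb9, had 244 UPM in immune cells. Elane, the neutrophil elastase inhibited by Serpinb1a, had 47.4 UPM in basal, 44.7 in immune and 38.9 in principal cells. Its ratio of basal to immune cells was 1.06 (0.709 to 1.65). All genes of the lists stood against the same background shares of highest types given above, and nothing particular to the lists is drawn from these counts.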

How the data were processed

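Single-cell RNA-Seq was available for 4 libraries (10x Chromium, 3′ chemistry), 1 per region, from cells of 4 pooled mice. The authors aligned reads with HISAT2 2.0.4 to mm10 (the same assembly as GRCm38), counted UMIs per RefSeq gene with ESAT with multimapped reads ignored, merged UMIs differing at 1 position, kept barcodes of 350 to 14999 UMIs as the deposited values show, and subtracted an ambient RNA estimate with a modified SoupX, which removed 3.54% of UMIs. The deposited counts are whole UMIs per gene and cell. The deposited size factors (scran), a relative signal of depth per cell, served only as an alternative. Cell types and 34 populations were the authors' own, with population numbers matched to the study's through equal numbers of cells.

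From these, UMIs were summed per group and divided by the group's total (UPM). Genes were called restricted at 20 or more UMIs in the highest group and 4 times every other group, with other groups raised to 3 UMIs. For shares, each cell was thinned to 1000 UMIs with a fixed seed and shallower cells were left out (2062 of 3956 principal, 110 of 348 clear, 257 of 1412 basal and 527 of 2222 stromal cells). Named members had at least 20 UMIs in a cell type, and library values within a population needed 50 cells. No test was run because each region has 1 library. The rules were tested on simulated data. Doublets were called against simulated ones (30 components, 30 neighbors) and kept: 178 cells, 2.0%, with 35.6 to 56.6% of simulated doublets recovered, so many may remain. Across libraries, 43 barcodes occurred more than once. In principal cells, 3 UMIs correspond to 0.641 to 2.11 UPM by library, and in clear cells to 5.18 to 20.0 UPM. Work was done in Python 3.11.15 with scikit-learn 1.9.0 for doublets, scipy 1.17.1 for intervals, and pandas 2.3.3, numpy 2.4.6 and matplotlib 3.10.9, with GENCODE M21 coordinates. The members, lists and rules were chosen with earlier results of these data known. Of the other settings tried, 76 were listed with those earlier results known and 7 were added after the values were seen. All 4 libraries and all 8880 cells were used. Counts over the family include 1 member whose values are not reported here.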

Additional observations from a re-analysis of the deposited data

Results flagged for a closer look

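A difference was looked for between cell types in how a pair of libraries compared, with at least 2-fold ratios in opposite directions and counting intervals apart from 1, a limit and a set of pairs chosen after the values were seen. With 1 library per region no such difference was tested. Serpina3n was 2.86-fold higher in the corpus than in the caput in stromal cells and at a ratio of 0.196 in principal cells, and for the vas deferens over the caput the ratios were 5 and 0.0554. Leaving out called doublets gave 2.83, 0.137, 5.01 and 0.0455. In endothelial cells the corpus over caput ratio was 2.05, and 2.07 without doublets.

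Serpina1f of the corpus over the caput was 4.41 in principal, 8.3 in basal and 5.7 in clear cells and 0.17 in stromal cells, where the counts were 6 and 15 UMIs. Without called doublets the basal ratio turned to 0.602 and the stromal one was 0.84. Serpina1f of the vas deferens over the cauda was 6.21 in clear cells and 0.453 in principal cells, and 8.28 and 0.457 without doublets, with the summed principal markers of clear cells at 10100 UPM in the vas deferens and 1490 in the cauda.

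Serpinb6b of the cauda over the corpus was 2.62 in basal cells, 0.172 in principal cells and 0.0799 in stromal cells, and 2.56, 0.302 and 0.0818 without doublets. Within the main basal population the levels were 34.8 UPM in cauda and 25.8 in corpus, a ratio of 1.35 (0.812 to 2.19). The stromal counts were 2 UMIs in the cauda and 42 in the corpus.

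Several of these differences were between endothelial cells, of which the libraries held 50 in caput, 39 in corpus, 12 in cauda and 144 in vas deferens, and the other types. Serping1 of the cauda over the caput was 54.9 in principal, 3.66 in basal and 0.102 in endothelial cells, the last on 2 and 37 UMIs. The ratios of the cauda over the corpus were 8.78, 2.46 and 0.0571 in the same types, and those of the vas deferens over the caput were 49.7 in principal and 0.101 in endothelial cells. Serpine2 of the vas deferens over the caput was 40.1 in principal, 2.43 in stromal and 0.415 in endothelial cells. The principal cell ratio had an interval of 7.05 to 1599, on 109 UMIs in vas deferens and 1 in caput. Within myofibroblasts Serpine2 had 136 UPM in vas deferens and 107 in caput. Serpinb9 of the vas deferens was higher in endothelial and lower in stromal cells, at ratios of 2.14 and 0.108 to the caput and 4.52 and 0.343 to the cauda, where the endothelial cells had 2 UMIs. Serpinh1 of the cauda over the corpus was 2.1 in endothelial and 0.117 in principal cells. Without called doublets all of these endothelial ratios kept their direction.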

How the results depend on the processing

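Of 517 values recomputed, 375 stayed within their limits, 121 moved and 21 turned around. Genes restricted to a type numbered 5 to 10 of 38 under all settings except a fold of 8, which left 3 (Serpina1f, Serpinb5 and Serpinf1). Serpinf2 lost its call without the caput library (log2 ratio -3.5), without the corpus or the vas deferens library, in cells of at least 1000 UMIs, with equal weight per cell and with size factors, and with size factors Serpinb6b and Serpinb9 lost theirs. In principal cells the 5 library-restricted genes became 8 at a fold of 2, and 2 at a fold of 8 or with equal weight per cell. They became 3 with size factors (Serpinb5, Serpine2 and Serpinf2) and 3 without called doublets (Serpina3n, Serpine2 and Serpinf2). At a fold of 2, 2 genes passed in basal and 3 in stromal cells, and 1 in stromal cells with equal weight per cell. By highest type, 10 UMIs as the minimum gave 5 principal and 2 immune genes, 50 UMIs gave 0 immune, no minimum gave 6 principal, 6 clear, 9 stromal, 5 endothelial and 4 immune, and leaving out the cauda gave 0 immune.

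The direction of the log2 ratio turned for the genes below, and the cause was not tested. Serpina7 gave -1.61 in cells of at least 1000 UMIs, -0.96 with equal weight per cell, -0.62 with size factors, and -2.88, -0.93 and -1.4 without the corpus, cauda or vas deferens library. Serpina3i gave -0.14, -0.87, -0.14 and -0.71 with equal weight per cell, with size factors and without the cauda or vas deferens. Serpinb10 gave -0.48 and -0.13 with equal weight per cell and with size factors, and -0.47, -0.13 and -0.63 without the corpus, cauda or vas deferens. Serpine2, stromal over principal, gave -0.38 with size factors and -0.17 without the vas deferens. Serpina3f gave -0.14 without the vas deferens, Serpinb6a of principal cells, caput over the next library, gave -0.29 with equal weight per cell, and the Serpina1f corpus over caput ratio in basal cells gave 0.602 without doublets.

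No paired analysis was possible because each region has 1 library and no test was run. Depth limits rare members: 17 genes had fewer than 20 UMIs in each cell type and were not assigned to one. Clear cells of the vas deferens number 38. Serpinf2 outside the caput rests on 0 to 2 UMIs per library.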
